A study of Mus musculus with 6 samples.

Results

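Transcription factor genes of the proneural and Notch effector families were followed in retinal cells of mice given *Ezh2* or *GFP* by virus before optic nerve injury. The 9 genes were chosen by name, with earlier results of these data known. They were the proneural basic helix-loop-helix (bHLH) genes *Neurog2*, *Atoh7*, *Neurod1*, *Neurod4* and *Olig2*, the zinc finger gene *Insm1*, and the Hes genes *Hes1*, *Hes5* and *Hes6*. All 9 were found among 55573 gene identifiers. Of them, 8 had a count above 0 in at least 1 library and 7 passed the filter on low counts. *Atoh7* and *Olig2* did not pass it.

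Proneural bHLH factors pair with E proteins, bind E-box sequences and drive progenitors toward neuronal fates. Activated Notch receptors act through the DNA-binding factor RBPJ to switch on *Hes1* and *Hes5*, whose products repress proneural genes and hold cells in a progenitor or glial state. Proneural factors in turn raise the ligand *Dll1*, which activates Notch in the neighboring cell, and *Hes6* encodes a Hes protein that opposes Hes1. In the retina these genes guide the birth of ganglion cells (RGCs), amacrine cells, bipolar cells and photoreceptors, and Müller glia keep Notch signaling into adult life.

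The mice were C57BL/6J animals aged 6 to 10 weeks. Control mice received AAV2-*GFP* in the vitreous, whereas the other group received AAV2-*Ezh2*. Both groups underwent optic nerve crush (ONC) 2 weeks after the virus and were sampled 3 days after the ONC. Live retinal cells bearing CD90.2, the product of *Thy1*, were then sorted to enrich RGCs, and RNA-Seq was done on 3 libraries per group. *Ezh2* encodes the catalytic subunit of PRC2, which methylates histone H3 at lysine 27. AAV2 in the vitreous can reach cells other than RGCs, and the sort rests on a single surface protein. The labels do not say whether the 3 libraries of a group came from separate animals, so p-values measure the spread between these libraries only.

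The libraries held between 30569933 and 35971192 counts. Ezh2 replicate 3 stood apart, with a correlation of 0.958 to 0.961 to the GFP libraries and of 0.971 to 0.972 to the other Ezh2 libraries. The study left out 1 Ezh2 library, inferred here to be replicate 3, so the main comparison used 5 libraries and values for all 6 are given beside the members and called genes. *Ezh2* itself stood at 28.8, 34.6 and 33.0 CPM in the GFP libraries and at 78.0, 65.3 and 105 CPM in the Ezh2 libraries, where CPM is the count scaled to the library total. All Ezh2 libraries lay above all GFP libraries for *Ezh2*, whose exons the antisense gene *Gm26625* overlaps. The log2 fold change was 1.17 (SE 0.08, adjusted p = 2.97e-11) in 5 libraries and 1.41 (adjusted p = 0.0122) in 6, where leaving out any single GFP library gave an adjusted p of 0.0616 to 0.0877. Every adjusted p printed here is a Benjamini-Hochberg value from the quasi-likelihood F test in edgeR, unless another tool is named.

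The markers of the sorted cells were mixed. *Pou4f2*, a defining RGC factor, had 0 to 3 counts in any library, and *Pou4f1* had 0 to 19. *Rbpms* lay between 16.4 and 20.8 CPM. The 7 Müller glia markers summed to 20951.6 to 21691.6 CPM in GFP libraries, 16173.7 to 16547.7 CPM in Ezh2 replicates 1 and 2, and 12907.1 CPM in Ezh2 replicate 3, against 125 to 129, 144 to 156 and 161 CPM for the 8 RGC markers. *Thy1*, the sorted antigen, made up most of the RGC sum. It was at 90.1 CPM on average in the GFP libraries, 104 CPM in Ezh2 replicates 1 and 2, and 114 CPM in Ezh2 replicate 3. These RNA pools thus held abundant Müller glia transcripts and few transcripts of defining RGC factors. In such bulk samples, fewer cells of a type and less RNA per cell cannot be told apart.

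Among the members, *Neurog2* and *Hes6* rose with *Ezh2* overexpression, in 5 and in 6 libraries. A gene was called when its adjusted p was under 0.05 and its change was above 1.5-fold. By this rule 2 of the 7 tested members were called higher and 0 were called lower. Across the 20241 genes tested in 5 libraries, 3.8% were called, with 2.52% higher and 1.28% lower. In 6 libraries 2.52% of 19732 genes were called, with 1.62% higher and 0.902% lower. Without the fold threshold, 4 of the 7 members had an adjusted p under 0.05, namely *Neurog2*, *Hes5*, *Hes6* and *Neurod4*, beside 17.8% of all tested genes (10.1% higher and 7.68% lower). In 6 libraries 3 members had one, namely *Neurog2*, *Hes5* and *Hes6*, beside 5.78% of genes (3.08% higher and 2.7% lower). The median log2 fold change of the 7 was 0.40, against -0.008 over all tested genes. Since the members were chosen with earlier results of these data known, these shares describe the list only.

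Upstream sequences of 3 of these genes are shown because *Neurog2* and *Hes6* carried the calls and *Hes5* is the classic Notch target among them. Each line gives the 250 bases before a RefSeq transcription start on GRCm38.p6, 5′ to 3′ on the gene's strand. Capitals mark matches, on either strand, to the E-box CANNTG, the RBPJ core TGGGAA or the N-box CACNAG, the last being a site class of Hes repressors. The *Neurog2* window is chr3:127632886-127633135 (plus strand), the *Hes5* window chr4:154960673-154960922 (plus strand) and the *Hes6* window chr1:91414039-91414288 (minus strand), the one of 2 RefSeq starts that matches the annotated gene end.
Neurog2: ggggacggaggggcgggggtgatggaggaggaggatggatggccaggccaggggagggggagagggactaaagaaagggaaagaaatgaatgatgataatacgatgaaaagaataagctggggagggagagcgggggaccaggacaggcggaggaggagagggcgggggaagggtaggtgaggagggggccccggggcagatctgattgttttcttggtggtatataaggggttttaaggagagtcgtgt
Hes5: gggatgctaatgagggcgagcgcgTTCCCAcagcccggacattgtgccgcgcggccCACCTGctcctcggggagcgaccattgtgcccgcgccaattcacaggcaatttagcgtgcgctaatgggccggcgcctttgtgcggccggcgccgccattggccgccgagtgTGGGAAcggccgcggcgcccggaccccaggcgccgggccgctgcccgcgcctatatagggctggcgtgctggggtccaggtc
Hes6: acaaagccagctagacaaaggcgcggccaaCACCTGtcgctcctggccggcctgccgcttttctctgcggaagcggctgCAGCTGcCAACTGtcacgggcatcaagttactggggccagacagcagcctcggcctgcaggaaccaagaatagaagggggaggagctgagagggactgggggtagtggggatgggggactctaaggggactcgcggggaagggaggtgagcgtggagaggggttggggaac

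The *Neurog2* window of 250 bases held none of the 3 motifs, whereas its whole 300-base window held 1 N-box. The *Hes5* window held a pair of RBPJ cores, whose first bases lay at -226 and -82 from the start, and an E-box at -194. The *Hes6* window held E-boxes at -220, -171 and -164. The window of the other *Hes6* start, not shown, held an E-box at -150 and an N-box at -237. Such short motifs are common. Among the 32851 RefSeq promoter windows, 66.2% held an E-box, 21.6% an RBPJ core and 36.7% an N-box in the 250 bases before the start. RefSeq windows were found for 7 members, and *Hes1* and *Insm1* had no entry. Of these 7, 4 held an E-box, 2 (*Hes5* and *Atoh7*) an RBPJ core and 2 an N-box. The latter were *Neurod4* and, only in the window not shown, *Hes6*. The ratio of observed to expected CpG, a measure of CpG island character, was 1.0 for *Hes5*, 0.713 for *Neurog2* and 0.508 for the *Hes6* window shown. The other *Hes6* window had 0.664. By number of CpG dinucleotides, *Neurog2* was the lowest instead, with 8. *Hes5* had 32, the *Hes6* window shown 12 and the other *Hes6* window 17. Over all windows the median was 0.373 and the upper quartile 0.723. A match describes letters only, and no binding or histone mark was measured here.

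*Neurog2* encodes a proneural bHLH factor of neuronal progenitors. It is ENSMUSG00000027967, on chromosome 3 at 127633135 to 127635631 (plus strand, GRCm38). It stood at 3.86, 3.32 and 3.55 CPM in GFP replicates 1 to 3 and at 7.83, 9.76 and 7.90 CPM in Ezh2 replicates 1 to 3. Every Ezh2 library was above every GFP library, and Ezh2 replicate 3 fell between the other two Ezh2 libraries. The mean was 3.57 ± 0.272 CPM (SD, n = 3) in the GFP group and 8.79 ± 1.37 CPM (SD, n = 2) in Ezh2 replicates 1 and 2. The increase was 2.48-fold, a log2 fold change of 1.31 (SE 0.18, adjusted p = 2.5e-06), and 1.29 (SE 0.17, adjusted p = 0.00469) in all 6 libraries. *Neurog2* stayed called in each of 21 other fits, with log2 fold changes from 1.13 to 1.47.

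*Neurod4* encodes a bHLH factor that acts in amacrine and bipolar cell development. It is ENSMUSG00000048015, on chromosome 10 at 130268152 to 130280240 (minus strand). It stood at 25.0, 22.7 and 22.8 CPM in the GFP libraries and at 18.8, 18.3 and 10.2 CPM in the Ezh2 libraries. Every Ezh2 library was below every GFP library, with replicate 3 far below the rest. Its log2 fold change was -0.33 (SE 0.09, adjusted p = 0.0123) in 5 libraries, short of the fold threshold. In 6 libraries it was -0.545 (SE 0.199, adjusted p = 0.146). The adjusted p was above 0.05 without GFP replicate 1 (0.0561), without Ezh2 replicate 1 (0.0562) and without Ezh2 replicate 2 (0.0728). The ratio of *Neurog2* to *Neurod4* counts was 0.154, 0.146 and 0.156 in the GFP libraries and 0.417, 0.533 and 0.774 in the Ezh2 libraries. Since every Ezh2 library was higher for *Neurog2* and lower for *Neurod4*, these ratios could not overlap and add no separate result.

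*Neurod1* encodes a bHLH factor of photoreceptors and amacrine cells. It is ENSMUSG00000034701, on chromosome 2 at 79452521 to 79456751 (minus strand). Its exons overlap *Cerkl* on the same strand and the antisense gene *Gm26755*, so some reads could belong to these. It stood at 6.28, 6.82 and 6.47 CPM in the GFP libraries and at 6.86, 6.77 and 3.06 CPM in the Ezh2 libraries. Ezh2 replicates 1 and 2 overlapped the GFP libraries, and replicate 3 lay far below both. The log2 fold change of 0.07 (95% confidence interval -0.255 to 0.401, adjusted p = 0.817) turned to -0.203 (adjusted p = 0.667) with replicate 3 included.

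*Insm1* encodes a zinc finger factor of newborn neurons and neuroendocrine cells. It is ENSMUSG00000068154, on chromosome 2 at 146221921 to 146225020 (plus strand). It was weakly detected, with 23, 20 and 21 counts in the GFP libraries and 43, 37 and 18 counts in the Ezh2 libraries. Ezh2 replicates 1 and 2 were above the GFP libraries, whereas replicate 3 was below them. A log2 fold change of 0.80 was fitted in 5 libraries, with a 95% confidence interval from -0.044 to 1.644 and an adjusted p of 0.197. In 6 libraries it was 0.51 (adjusted p = 0.459), so no difference was called in either fit, with replicate 3 apart from the other Ezh2 libraries.

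*Atoh7*, which most RGCs require for their formation, and *Olig2*, a factor of retinal progenitors and oligodendrocyte precursors, were at or near 0. *Atoh7* (ENSMUSG00000036816, chromosome 10, 63099651 to 63101279, plus strand) had 1 count in GFP replicate 2 and 0 in the other libraries. *Olig2* (ENSMUSG00000039830, chromosome 16, 91225457 to 91228677, plus strand) had 0 counts in all 6 libraries. A count of 0 allows up to 3 counts, or 0.0834 to 0.0981 CPM in these libraries, for counting error only. Of 8 oligodendrocyte lineage markers, only *Mog* was also at 0 in every library, and 6 were tested. The list summed to 234 to 236 CPM in GFP libraries, 248 to 250 CPM in Ezh2 replicates 1 and 2 and 251 CPM in Ezh2 replicate 3.

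**Figure D1:**
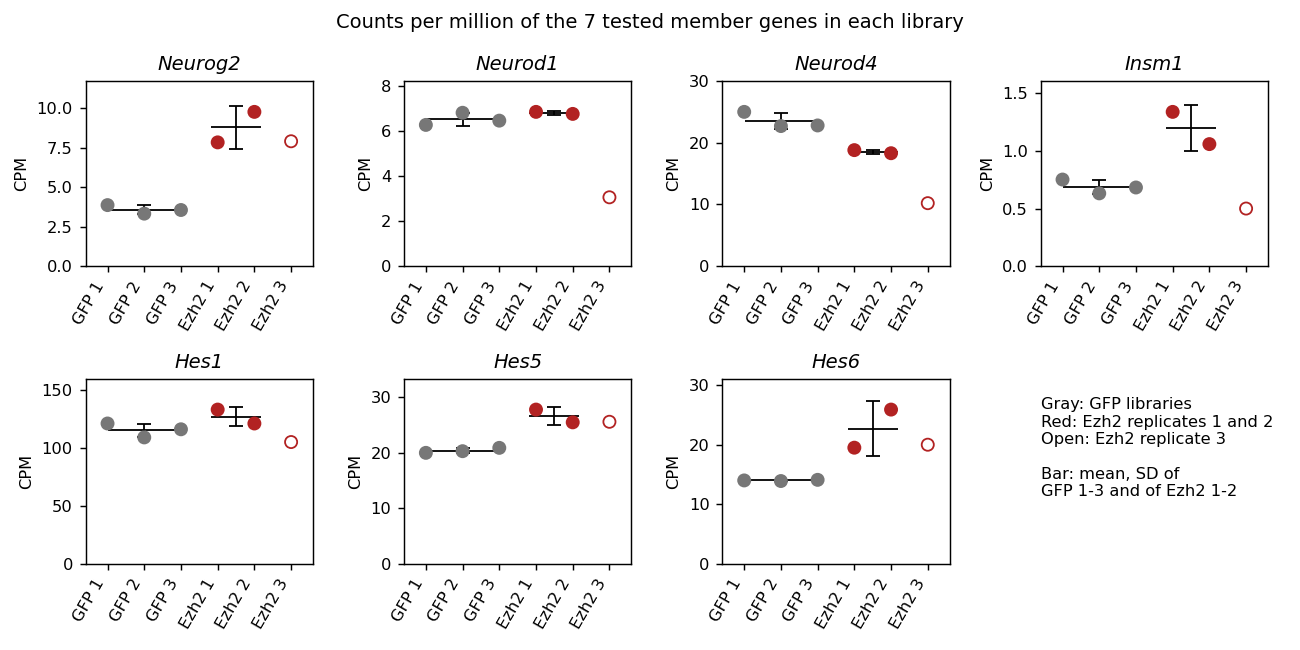
CPM of the 7 tested genes by library (each vertical axis starts at 0 and has its own scale; filled gray, GFP; filled red, Ezh2 replicates 1 and 2; open, Ezh2 replicate 3; bars, mean and SD of GFP and of Ezh2 replicates 1 and 2). *Neurog2*, *Hes5* and *Hes6* are higher in every Ezh2 library than in any GFP library, *Neurod4* is lower in every Ezh2 library, and replicate 3 is the lowest library for *Neurod1*, *Neurod4*, *Insm1* and *Hes1*.

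*Hes1* and *Hes5*, repressors switched on by Notch, were compared next. *Hes1* is ENSMUSG00000022528, on chromosome 16 at 30064384 to 30067796 (plus strand). It stood at 121, 109 and 116 CPM in the GFP libraries and at 133, 121 and 105 CPM in the Ezh2 libraries. The groups overlapped, since Ezh2 replicate 2 lay just below the highest GFP library and replicate 3 below all of them. Its log2 fold change was 0.145 (SE 0.056, 95% confidence interval 0.03 to 0.26, adjusted p = 0.0728) in 5 libraries and 0.086 (adjusted p = 0.534) in 6. The interval in 5 libraries lies well inside the 1.5-fold threshold.

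*Hes5* is ENSMUSG00000048001, on chromosome 4 at 154960923 to 154962371 (plus strand), and the antisense gene *Gm20421* overlaps its exons. It stood at 20.0, 20.3 and 20.9 CPM in the GFP libraries and at 27.8, 25.5 and 25.6 CPM in the Ezh2 libraries. The groups did not overlap. The mean was 20.4 ± 0.437 CPM (SD, n = 3) in the GFP group and 26.7 ± 1.61 CPM (SD, n = 2) in Ezh2 replicates 1 and 2. The 1.32-fold difference, a log2 fold change of 0.40 (SE 0.09, adjusted p = 0.0015), was below the fold threshold. In 6 libraries it was 0.41 (adjusted p = 0.0371), and less any one library other than Ezh2 replicate 3 the adjusted p was 0.0603 to 0.173. The ratio of *Hes5* to *Hes1* counts was 0.165, 0.186 and 0.18 in GFP libraries and 0.21, 0.212 and 0.244 in Ezh2 libraries, without overlap. Müller glia, which express both genes, had lower summed marker levels in the Ezh2 libraries (16173.7 to 16547.7 CPM in replicates 1 and 2 against 20951.6 to 21691.6 CPM in GFP libraries), whose part in these values was not tested.

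*Hes6* encodes the family member that opposes Hes1. It is ENSMUSG00000067071, on chromosome 1 at 91411483 to 91414038 (minus strand). It stood at 14.0, 13.9 and 14.1 CPM in the GFP libraries and at 19.5, 25.9 and 20.0 CPM in the Ezh2 libraries. All Ezh2 libraries were above all GFP libraries, and Ezh2 replicate 2 was the highest by a wide margin. The mean was 14.0 ± 0.0815 CPM (SD, n = 3) in the GFP group and 22.7 ± 4.56 CPM (SD, n = 2) in Ezh2 replicates 1 and 2. The increase was 1.64-fold, a log2 fold change of 0.71 (SE 0.11, adjusted p = 2.47e-05), and 0.68 (SE 0.13, adjusted p = 0.0201) in 6 libraries. Without Ezh2 replicate 2 the log2 fold change was 0.48 (adjusted p = 0.0114), below the fold threshold, so this call rested on that library. In 6 libraries less any single GFP library the adjusted p was 0.109 to 0.125, and less Ezh2 replicate 2 the log2 fold change was 0.55.

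**Figure D2:**
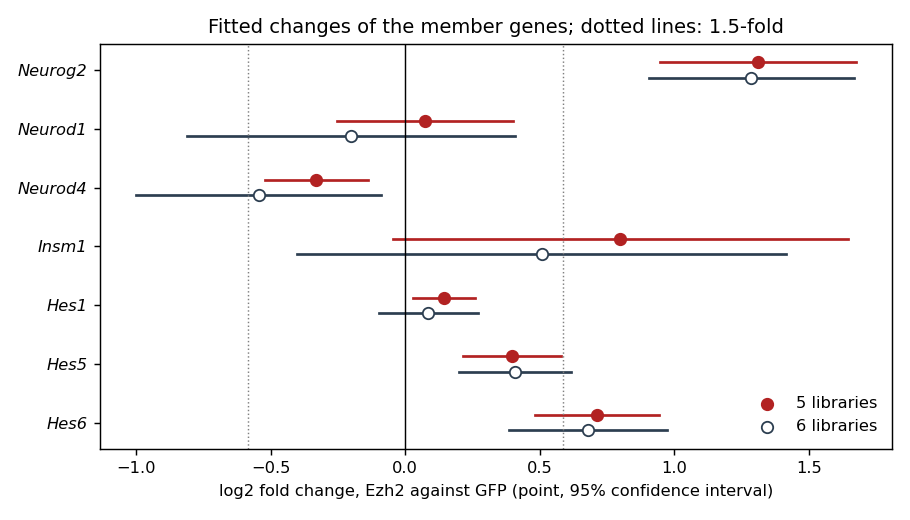
Fitted log2 fold change of Ezh2 against GFP with its 95% confidence interval for each tested gene, in 5 libraries (filled red) and in 6 (open). Dotted lines mark a 1.5-fold change. The points of *Neurog2* and *Hes6* lie above the upper line in both fits and that of *Hes5* below it. The interval of *Hes6* crosses this line in both fits, and that of *Hes5* in 6 libraries. The intervals of *Neurod1* and *Insm1* span 0 in both fits, and that of *Hes1* in 6 libraries.

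Of the 7 members, 4 did not overlap between groups and were higher in Ezh2 in 5 libraries, beside 21.5% of all tested genes, and 1 was lower, beside 23.4%. In 6 libraries these counts were 3 (14.9% of genes) and 1 (19.3%). The 3 were *Neurog2*, *Hes5* and *Hes6*, and *Insm1* was the one that overlapped once replicate 3 was included. Relative to the other Ezh2 libraries, replicate 3 held 0.418 of the mean *Insm1* CPM, 0.449 of *Neurod1*, 0.55 of *Neurod4* and 0.828 of *Hes1*, and it lay below all 5 other libraries for each. For *Hes5*, *Neurog2* and *Hes6* it held 0.959, 0.898 and 0.881, within the range of the others.

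Levels were compared between genes as CPM per kilobase of exon (RPKM). In the GFP group the order was *Hes1* (56.7), *Hes5* (15.0), *Hes6* (7.74), *Neurod4* (7.02), *Neurod1* (2.39), *Neurog2* (1.61) and *Insm1* (0.222). In Ezh2 replicates 1 and 2 the levels were 62.2, 19.6, 12.6, 5.54, 2.5, 3.95 and 0.386 for the same genes. *Neurog2* thus stood below *Neurod1* in the GFP group and above it in the Ezh2 group. No neighboring pair in either order had overlapping ranges across libraries. Hes gene RNA was the most abundant of these families in the sorted cells.

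The pathway around the members was described with lists of named genes, also chosen with earlier results of these data known. Over the 11 lists, 74 of 87 genes were tested, 4 were called higher and 1 lower in 5 libraries (beside 3.8% of all genes), and 3 higher and 1 lower in 6 (beside 2.52%). The median log2 fold change of the 74 was 0.046. Called genes lay among the ligands, the other bHLH genes and the RGC factors.

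Among Notch ligands, *Dll1*, the ligand that proneural factors raise, was the only called gene of 4 tested. It stood at 12.5, 12 and 14.0 CPM in the GFP libraries and at 24.3, 24.5 and 23.3 CPM in the Ezh2 libraries, without overlap. Its fitted log2 fold change was 0.94 (SE 0.10, adjusted p = 4.63e-08), and 0.945 (adjusted p = 0.00249) in 6 libraries. The antisense gene *A930024N18Rik* overlaps its exons. *Dll1* stayed called in each of 21 other fits. *Jag1* had a log2 fold change of 0.35 (adjusted p = 0.0169), below the fold threshold, and 0.341 (adjusted p = 0.113) in 6 libraries.

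Notch receptors and the machinery for processing and relaying the signal gave no call. None of the 4 receptors and none of the 23 processing and transduction genes were called in 5 or in 6 libraries. Of the latter, 4 had an adjusted p under 0.05 in 5 libraries and 2 in 6. *Mfng*, a relative of *Lfng*, had the largest of these log2 fold changes, 0.381 (adjusted p = 0.00259) and 0.534 in 6 libraries (adjusted p = 0.0478), and *Adam17*, a protease that can cut Notch, had 0.342 (adjusted p = 1.53e-05) and 0.294 in 6 (adjusted p = 0.0435). *Psen2* had 0.24 (adjusted p = 0.0207) and *Numb* -0.195 (adjusted p = 0.0407), with adjusted p of 0.0865 and 0.117 in 6 libraries. The most abundant receptors, *Notch2* and *Notch1*, had log2 fold changes of -0.112 (adjusted p = 0.141) and -0.054 (adjusted p = 0.535). *Lfng*, a glycosyltransferase that tunes Notch to its ligands, had 0.078 (adjusted p = 0.323), and *Dtx3* had -0.089 (adjusted p = 0.326). In 6 libraries the adjusted p of *Notch2*, *Notch1*, *Lfng* and *Dtx3* ranged from 0.234 to 0.81, and *Dtx3* was at 0.053. Of the other Hes and Hey genes, 0 of 4 were called. *Hey2*, the most abundant, had a log2 fold change of -0.236 (adjusted p = 0.00499) in 5 libraries and -0.322 (adjusted p = 0.0781) in 6, and *Hey1* had -0.271 (adjusted p = 0.142) and -0.29 (adjusted p = 0.207).

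Of the other proneural bHLH genes, 6 of 13 were tested and 2 were called, in opposite directions. *Nhlh2*, a bHLH gene of developing neurons, stood at 1.14, 1.64 and 1.14 CPM in the GFP libraries and at 5.56, 4.02 and 3.25 CPM in the Ezh2 libraries. It rose by a log2 fold change of 1.88 (SE 0.26, adjusted p = 3.32e-06), and 1.74 (adjusted p = 0.00961) in 6 libraries. *Neurod2*, a relative of *Neurod1* known from amacrine cells, stood at 2.88, 2.37 and 2.57 CPM in the GFP libraries and at 0.87, 0.314 and 0.50 CPM in the Ezh2 libraries. It fell, with a log2 fold change of -2.14 (SE 0.37, adjusted p = 8.33e-05), and -2.18 (adjusted p = 0.0125) in 6 libraries. The groups did not overlap for either gene. The *Neurod2* value depended on the Ezh2 library, with -3.01 without Ezh2 replicate 1 and -1.58 without Ezh2 replicate 2. The summed level of the amacrine markers was also lower, at 44.9 to 49.5 CPM in Ezh2 replicates 1 and 2 against 67.6 to 79.6 CPM in the GFP libraries, with *Tfap2b* and *Slc6a9* making up most of the difference. *Gad1* of the same list was at 1.87 CPM on average in the GFP libraries, 3.1 CPM in Ezh2 replicates 1 and 2 and 12.1 CPM in replicate 3. The part of these markers in the *Neurod2* result was not tested. In 6 libraries the *Neurod2* call was lost without any single GFP library (adjusted p 0.0594 to 0.0857), and the *Nhlh2* call without GFP replicate 1 (0.0791) or GFP replicate 3 (0.0821).

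RGC factors that act after *Atoh7* in development gave 2 calls among 5 tested. *Isl1* (log2 fold change -0.137, adjusted p = 0.567), *Pou4f1* (0.182, adjusted p = 0.919) and *Ebf1* (0.445, adjusted p = 0.132) were not called. *Pou4f2* and *Pou4f3* had too few counts for a test. *Ebf3* stood at 3.63, 3.66 and 4.16 CPM in the GFP libraries and at 10.4, 8.85 and 7.12 CPM in the Ezh2 libraries. It rose by a log2 fold change of 1.34 (SE 0.17, adjusted p = 6.72e-07), and 1.24 (adjusted p = 0.00669) in 6 libraries. The antisense gene *Gm45278* overlaps its exons. The 6-library call was lost without GFP replicate 1 (adjusted p = 0.0647) or GFP replicate 2 (0.0512). *Eomes*, a T-box factor of a subset of RGCs, stood at 1.96, 1.58 and 1.82 CPM in the GFP libraries and at 3.70, 2.74 and 2.20 CPM in the Ezh2 libraries. Its log2 fold change of 0.85 (adjusted p = 0.0224) was called in 5 libraries only, with 0.72 (adjusted p = 0.128) in 6. The antisense gene *Gm33460* overlaps the *Eomes* exons. The call was also lost without GFP replicate 2 (0.0808), without Ezh2 replicate 1 (0.274) and by DESeq2 (0.0502).

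E proteins, the dimer partners of proneural factors, and Id proteins, which block such pairing, were not called in 3 and 4 tested genes. *Tcf3* and *Tcf4* had log2 fold changes of 0.037 (adjusted p = 0.737) and -0.122 (adjusted p = 0.0907) in 5 libraries, and 0.081 (adjusted p = 0.515) and -0.174 (adjusted p = 0.165) in 6. *Id2* had 0.206 (adjusted p = 0.00848), and 0.203 (adjusted p = 0.118) in 6 libraries. *Id3* had 0.15 (adjusted p = 0.146), and 0.119 (adjusted p = 0.428) in 6.

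Retinal progenitor factors, 8 of 8 tested, gave no call in 5 or in 6 libraries, with a median log2 fold change of -0.101. An adjusted p under 0.05 was found for 2 of the 8 in 5 libraries, *Lhx2* (-0.227, adjusted p = 0.00216) and *Pax6* (-0.148, adjusted p = 0.0309), and for 0 in 6 (0.056 and 0.114). *Sox2* had -0.035 (adjusted p = 0.724). Among neuronal zinc finger factors, 0 of 6 were called, and 1, *St18*, had an adjusted p under 0.05 in 5 libraries (-0.497, adjusted p = 0.0376) but not in 6 (0.103). *Rest*, a repressor of neuronal genes, had a log2 fold change of 0.019 (adjusted p = 0.858), and *Myt1* 0.113 (adjusted p = 0.684). Photoreceptor factors, 0 of 7 called, had a median of 0.224 in 5 libraries and 0.067 in 6. Of them, 3 had an adjusted p under 0.05 in 5 libraries and 0 in 6. These were *Nr2e3* at 0.532 (adjusted p = 0.0173), *Prdm1* at 0.435 (adjusted p = 0.000989) and *Thrb* at -0.206 (adjusted p = 0.0406), with adjusted p of 0.157, 0.0785 and 0.122 in 6 libraries. *Crx* had 0.076 (adjusted p = 0.633), and -0.041 (adjusted p = 0.868) in 6.

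**Figure D3:**
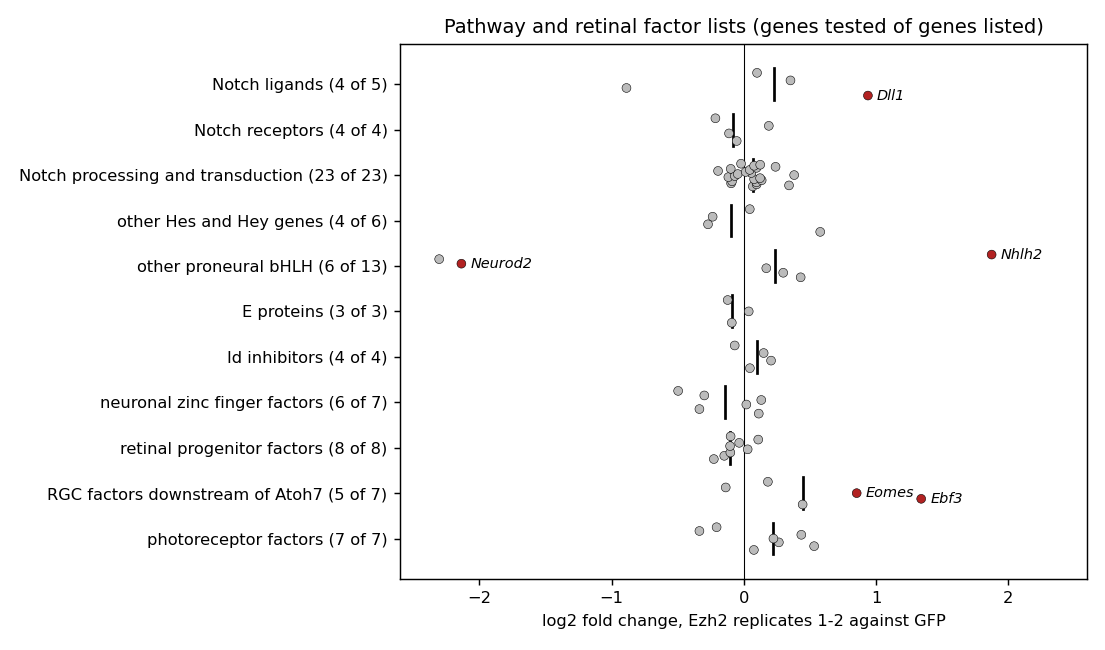
Log2 fold change of Ezh2 replicates 1 and 2 against GFP for each tested gene of the 11 lists (numbers of tested and listed genes in brackets; black bars, list medians; red, called genes). Called genes are *Dll1*, *Nhlh2*, *Neurod2*, *Eomes* and *Ebf3*, and no gene of the receptor, processing, E protein, Id or progenitor lists is called.

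Per-library profiles were set beside the members over the 6 libraries, as log2 CPM. Such values describe likeness over 6 points that fall into 2 treatment groups and share 1 library that stands apart. Of 74 candidate genes, *Dll1* and *Ebf3* had the profiles most like *Neurog2* (Pearson r 0.979 and 0.947), *Hes5* (0.981 and 0.974) and *Hes6* (0.933 and 0.891). *Hey2* was among the 2 genes most like *Neurod4* (0.966), and *Neurod1* was most like *Bhlhe23* (0.98) and *Nrarp* (0.942). *Insm1* was most like *Otx2* (0.822) and *Eomes* (0.802), and *Hes1* was most like *Eomes* (0.839) and *Ebf1* (0.828). Among the members themselves, *Neurog2* and *Hes6* reached 0.973, *Neurod1* and *Neurod4* 0.873, and *Neurog2* and *Neurod4* -0.697.

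Marker levels of other cell types also differed between the groups. Müller glia markers, 7 of 7, had an adjusted p under 0.05 and were lower in Ezh2 replicates 1 and 2, with 0 past the fold threshold, a median log2 fold change of -0.285, *Glul* at -0.485 and *Dkk3* at -0.24. In 6 libraries 4 of 7 had an adjusted p under 0.05 and 1, *Abca8a*, was called lower (-0.586, adjusted p = 0.01). Cone markers were called higher in 7 of 7 in 5 libraries and in 2 of 7 in 6, with summed levels of 28.5 to 28.8 CPM in GFP libraries, 57.1 to 65.8 CPM in Ezh2 replicates 1 and 2 and 38.5 CPM in replicate 3. Rod markers, 1 of 6 called higher in 5 libraries and 0 in 6, summed to 366 to 434, 659 to 700 and 392 CPM. Amacrine markers, 1 of 6 called lower, summed to 67.6 to 79.6, 44.9 to 49.5 and 47.6 CPM. Bipolar markers, 0 of 6 called, summed to 283 to 287, 252 to 305 and 261 CPM. RGC marker sums were given above, with 0 of 7 called in 5 libraries and 1 called higher in 6, *Nefl* (0.585, adjusted p = 0.0306; 0.561 in 5). *Thy1*, the sorted antigen, was at 90.1 ± 2.73 CPM in the GFP group (SD, n = 3) and 104 ± 7.02 CPM in Ezh2 replicates 1 and 2 (SD, n = 2). The groups did not overlap. Its log2 fold change was 0.216 (adjusted p = 0.00675), below the fold threshold, and 0.292 (adjusted p = 0.0734) in 6 libraries.

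Immune and glial markers were summed in the same way. Astrocyte markers had 1 of 4 called higher, *Gfap*, the only one with an adjusted p under 0.05 in 5 libraries. Their median log2 fold change was 0.139, so the sum does not describe the list as a whole. They summed to 609 to 642, 945 to 1128.3 and 890 CPM in GFP libraries, Ezh2 replicates 1 and 2, and Ezh2 replicate 3. Microglia and macrophage markers, 1 of 7 called higher and 5 of 7 with an adjusted p under 0.05 in 5 libraries (1 in 6), summed to 1354.3 to 1499, 1731.3 to 1812.3 and 1258.8 CPM. T cell markers, 0 of 6 called, had an adjusted p under 0.05 in 6 of 6 in 5 libraries, all higher with a median log2 fold change of 0.34, and in 1 of 6 in 6 libraries. They summed to 278 to 291, 341 to 364 and 642 CPM. In replicate 3 the T cell sum was thus the highest and the Müller glia sum the lowest. B and plasma cell markers, 0 of 6 called, summed to 464 to 515, 477 to 507 and 289 CPM, and oligodendrocyte lineage markers, 0 of 6, to 234 to 236, 248 to 250 and 251 CPM. Dividing cell markers, 1 of 6 called higher in 5 libraries and 0 in 6, summed to 96.2 to 116, 118 to 140 and 195 CPM. The part of these shifts in the changes of *Neurog2*, *Hes6*, *Dll1*, *Nhlh2*, *Ebf3*, *Eomes* and *Neurod2* was not tested.

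**Figure D4:**
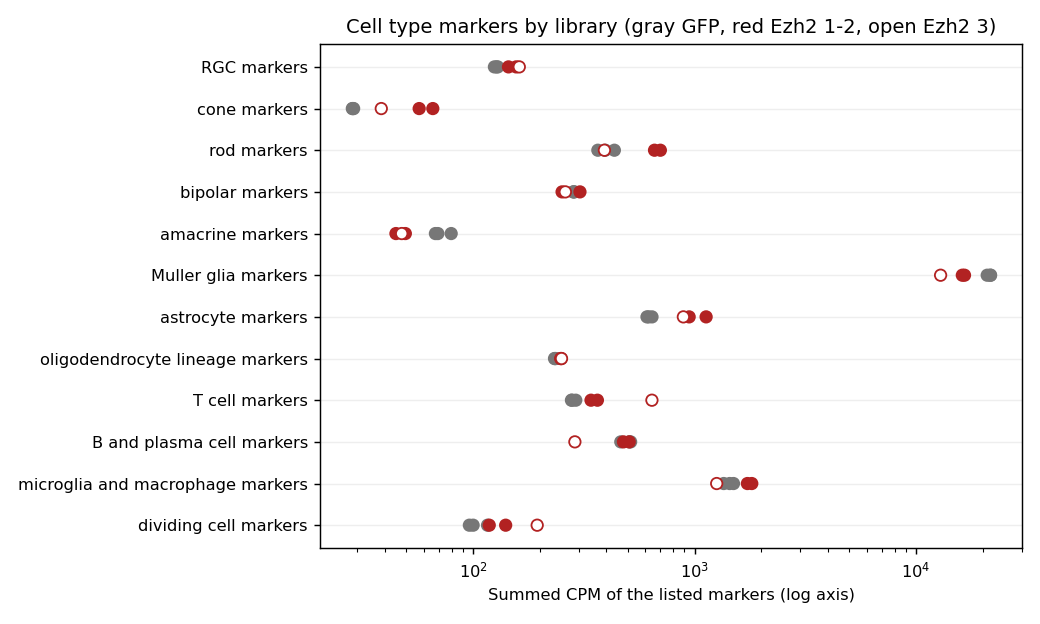
Summed CPM of each marker list by library on a log axis (filled gray, GFP; filled red, Ezh2 replicates 1 and 2; open, Ezh2 replicate 3). Müller glia sums are the highest in every library and range from 21691.6 CPM in a GFP library to 12907.1 CPM in Ezh2 replicate 3, whereas cone sums are higher in Ezh2 libraries and T cell sums are highest in replicate 3.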

How the data were processed

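RNA-Seq was done on 6 libraries of sorted retinal cells. The authors deposited raw read counts per Ensembl gene, and all 6 count columns matched samples through their labels, with 0 left over. The submitters' processing notes name STAR 2.7.0d and GRCm38. The counting program, annotation release and strand setting are not given in the sources used here, so antisense and overlapping genes are uncertain to that extent. Of 55573 identifiers, 55480 matched GENCODE M21, which gave symbols, coordinates and the exon lengths used for RPKM. Floors from a count of 0 cover counting error only, as no molecular identifiers were used, whereas confidence intervals of fold changes come from the fit and include the spread between libraries.

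For the main comparison, Ezh2 replicate 3 was left out. Counts were filtered with filterByExpr, scaled by TMM and fitted in edgeR 4.0.16 (R 4.3.3) with the robust quasi-likelihood F test, two-sided, with group as the only term. P values were adjusted by the Benjamini-Hochberg method over all tested genes. CPM used library totals. The members, marker lists and pathway lists were chosen with earlier results of these data known. Named genes were all members, *Ezh2*, the called genes of each list, otherwise its 2 most abundant, and the 2 most alike in profile, with log2 CPM at a prior count of 2. Other genes are named where a count or a cell type check needed them, after their values were seen. A result for 1 list gene is not reported here. Promoters came from RefSeq on GRCm38.p6.

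On simulated counts with these library sizes, 187 of 200 changed genes were recovered among 19797, with 7 false calls. The changed genes all had a mean of at least 50 counts and changes well above 1.5-fold. Recovery of changes near that threshold, or at lower counts, was not tested. The fit was repeated with all 6 libraries, without each library, with a replicate block, and with DESeq2 1.42.0, limma-voom (limma 3.58.1), other scaling, no filter, a mean of at least 50 counts and no fold threshold. Fits of 6 libraries less 1, DESeq2 on 6 libraries and the fit without the robust option were chosen after seeing the data. Figures were drawn with matplotlib 3.10.9.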

Additional observations from a re-analysis of the deposited data

How the results depend on the processing

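Of the members, 2 were called. The count was 1 without Ezh2 replicate 2, and 1 to 2 when any one of the 5 libraries was left out. With all 6 libraries it was 2, falling to 1 without GFP replicate 1, GFP replicate 2, GFP replicate 3 or Ezh2 replicate 2. Without the fold threshold it was 4. The called list genes numbered 5, ranging from 4 to 7 with any one library left out, from 1 to 6 in all 6 libraries less any one but Ezh2 replicate 3 (1, 2 and 2 without GFP replicates 1, 2 and 3), and 18 without the fold threshold. The log2 fold change of *Ezh2* in all 6 libraries less GFP replicate 1, 2 or 3 was 1.339, 1.469 and 1.432, with an adjusted p of 0.0793, 0.0616 and 0.0877. *Neurod1* turned negative in every fit that held Ezh2 replicate 3: -0.203 in all 6 libraries, -0.199 by DESeq2, -0.271 with the replicate block, -0.229, -0.168 and -0.208 without GFP replicates 1, 2 and 3, and -0.364 and -0.368 without Ezh2 replicates 1 and 2. In none of these did its adjusted p pass the threshold. Members with an N-box numbered 4 in the whole 300-base window against 2 in the 250 bases before the start. The added ones were *Neurog2* and *Neurod1*. The causes were not tested.

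Same-numbered libraries did not deviate together over all genes (correlations of -0.0051, -0.0197 and -0.0102). The Ezh2 deviations were taken from a mean that includes replicate 3, which stood apart, so these values cannot exclude a pairing by number. With the replicate number as a block, 2 members were called in 5 and in 6 libraries, and 7 and 4 list genes.

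The biological coefficient of variation was 0.184 with 6 libraries and 0.0846 with 5. *Atoh7* and *Olig2* had too few counts for a test.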
